A study of Mus musculus with 6 samples.

Results

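The subunit genes of the NMDA receptor, an ionotropic glutamate receptor, were followed in RNA of mouse primary cortical neurons. The members were 6 genes taken by name, Grin1, Grin2a, Grin2b, Grin2c, Grin2d and Grin3a, of 55385 gene identifiers counted in 6 libraries. The 3 libraries labelled Activated came from neurons depolarised with KCl for 5 minutes, washed, and left for 30 minutes of recovery. The 3 libraries labelled Control came from untreated neurons. Cells of both groups were isolated from cortices at embryonic day 18, exposed from day 2 for 24 hours to 2.5 uM AraC, which limits dividing cells, and harvested after 16 days in vitro. For KCl the labels state 50 mM in the protocol but 50 uM among the sample characteristics. Whether replicates were separate cultures or animals is not stated, so the p-values speak only to variation among these libraries, which may be technical.

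NMDA receptors are cation channels assembled from obligatory GluN1 subunits, which bind the co-agonist glycine or D-serine, and from GluN2 or GluN3 subunits. GluN2 subunits bind glutamate and set the kinetics of the channel. Magnesium blocks the pore at rest, so the channel passes calcium when glutamate is bound and the membrane is depolarised at the same time. In the cortex GluN2B predominates early and GluN2A gains with maturation, GluN2C is best known from cerebellar granule cells, GluN2D from interneurons, and GluN3A, which lowers calcium permeability, from juvenile neurons.

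None of the 6 subunit genes passed the test between the groups, and the CPM values (reads relative to the size of the library, scaled by TMM) of the groups overlapped for each of them. Fold changes of the 5 well-measured members lay between 0.959 for Grin2a and 1.06 for Grin1. Among all 18132 genes tested, 36.8% were called (edgeR quasi-likelihood test, Benjamini-Hochberg adjusted p below 0.05), 16.2% with higher and 20.6% with lower levels in libraries labelled Activated. The CPM ranges of both groups were apart for 49%, with Activated above Control for 22.6% and below it for 26.4%. Of the 5383 genes at least as abundant as Grin2d, which include all members but Grin2c, 55.3% were called, and 42.3% were lower in the libraries labelled Activated. The members' median log2 fold change was −0.026, against 0.043 over all genes tested.

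Reads of these libraries were 150 bases long, against which the likeness of the members' transcripts can be set. The coding sequences of GENCODE M21 were 44.2% identical between Grin1 and Grin2b and 61.5% between Grin2a and Grin2b. The longest run of bases shared by annotated transcripts of any pair was 34 bases, between Grin2b and Grin2c.

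Gene reads numbered 17752711 to 32740171 in libraries labelled Activated and 22994946 to 32919975 in those labelled Control. All 12 rapid activity-induced genes listed, among them Fos, Arc, Npas4 and Egr1, were lower in the libraries labelled Activated, with log2 fold changes from −2.39 to −0.43. That is opposite to the direction that the name Activated implies, and the cause was not tested. Every direction given here rests on the labels as deposited. Of 12 pan-neuronal markers, 10 fell and 1 rose, and their summed level was 5182 to 5745 CPM in libraries labelled Activated, against 6155 to 6321 CPM in those labelled Control. Excitatory neuron markers fell in 9 of 16 cases and inhibitory neuron markers in 12 of 18, and none of either rose. Beside these marker counts, 20.6% of all genes tested were called lower and 16.2% higher. Among genes at least as abundant as Grin2d, 42.3% were lower and 13% higher. Of 14 astrocyte markers, 13 rose and none fell, with sums of 1962 to 2428 CPM in libraries labelled Activated and 1486 to 1552 CPM in those labelled Control. Endothelial, mural and fibroblast markers summed to 362 to 419 CPM in libraries labelled Activated and 231 to 261 CPM in those labelled Control, with 7 of 11 tested higher. Oligodendrocyte lineage markers summed to 78.4 to 90.1 CPM in libraries labelled Activated and 59.8 to 65.1 CPM in those labelled Control, with 4 of 7 tested higher. Microglia markers summed to 32.6 to 67.4 CPM in libraries labelled Activated and 25.6 to 38.4 CPM in those labelled Control, with 5 of 9 tested higher. Some defining markers were near 0, with at most 2 reads for Mog, 4 for Mobp and 1 for Cldn5 in any library, whereas Mbp had up to 466. In bulk RNA, fewer cells of a type and less RNA per cell cannot be told apart, and the part of this shift in the values that follow was not tested.

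Grin1, on the minus strand of chromosome 2 (ENSMUSG00000026959.13, mm10, 25291181 to 25319187), encodes the obligatory GluN1 subunit. Its level was 608, 542 and 664 CPM in replicates 1, 2 and 3 labelled Activated, and 573, 593 and 541 CPM in replicates 1, 2 and 3 labelled Control. Replicate 3 labelled Activated was the highest and replicate 3 labelled Control the lowest, and replicate 2 labelled Activated lay within the range of the Control libraries. Its fold change on the log2 scale was 0.087 ± 0.077 (SE; edgeR adjusted p = 0.393), with a 95% interval of the fold from 0.947 to 1.19. Without replicate 3 labelled Activated it was 0.013, and without replicate 2 labelled Activated 0.16.

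Grin1 also shows how much strand matters at this locus. The antisense gene Grin1os shares 1307 exonic bases with it. On the strand of Grin1 the 6 libraries held 95014 reads together, and in the unstranded column, where reads over both genes are set aside as ambiguous, 54480 reads, which is 57.3% as many. Reads on the strand opposite to Grin1 made up 0.102% of both strands. The log2 fold change in unstranded counts was 0.055, again without a call.

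Grin2b encodes the GluN2 subunit that predominates in young cortex (ENSMUSG00000030209.14, minus strand of chromosome 6, 135713233 to 136173511). It stood at 1619, 1573 and 1854 CPM in replicates 1, 2 and 3 labelled Activated, and at 1740, 1714 and 1798 CPM in replicates 1, 2 and 3 labelled Control. The Control values fell inside the wider range of the Activated ones, whose highest was again replicate 3. On the log2 scale the change was −0.058 ± 0.076 (SE; edgeR adjusted p = 0.576), with a 95% interval of the fold from 0.858 to 1.08. Without replicate 3 labelled Activated, it was −0.14 (adjusted p = 0.142).

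Grin2a, whose product gains on GluN2B as cortex matures, lies on the minus strand of chromosome 16 (ENSMUSG00000059003.12, 9567898 to 9995560). Its values were 348, 346 and 371 CPM in replicates 1, 2 and 3 labelled Activated, and 362, 374 and 374 CPM in replicates 1, 2 and 3 labelled Control. The first 2 Activated libraries lay below all Control libraries and the third among them. This was the tightest estimate of the family, with a change of −0.060 ± 0.060 on the log2 scale (SE; edgeR adjusted p = 0.457) and a 95% interval of the fold from 0.877 to 1.05.

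Grin2d encodes a GluN2 subunit of slowly closing channels (ENSMUSG00000002771.12, minus strand of chromosome 7, 45831883 to 45878378). Its values were 31.1, 31.1 and 30.1 CPM in replicates 1, 2 and 3 labelled Activated, and 27.8, 28.4 and 32.6 CPM in replicates 1, 2 and 3 labelled Control. The Activated libraries lay close together, inside the spread of the Control ones. This gave 0.052 ± 0.076 as the log2 fold change (SE; edgeR adjusted p = 0.611), with a 95% interval of the fold from 0.926 to 1.16. The antisense gene Gm45441 shares 643 exonic bases with it, and 9.02% of reads at the gene lay on the opposite strand.

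Grin2c was the only member near the limit of detection. It lies on the minus strand of chromosome 11 (ENSMUSG00000020734.13, 115249169 to 115267243) and had 9, 16 and 23 reads in replicates 1, 2 and 3 labelled Activated, and 20, 12 and 22 reads in replicates 1, 2 and 3 labelled Control. These equal 0.611 ± 0.0979 CPM in libraries labelled Activated and 0.622 ± 0.102 CPM in libraries labelled Control (SD, n = 3 each). Between groups the log2 change was −0.011 ± 0.30 (SE; edgeR adjusted p = 0.990), and the 95% interval of the fold, 0.634 to 1.55, was several times wider than for the other members. Folds within that interval are compatible with these counts, and the smallest change that could have been detected was not computed.

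Grin3a encodes the glycine-binding subunit that is best known from juvenile neurons (ENSMUSG00000039579.15, minus strand of chromosome 4, 49661611 to 49845744). Its values were 81.7, 73.8 and 87.4 CPM in replicates 1, 2 and 3 labelled Activated, and 82.4, 81.3 and 86.3 CPM in replicates 1, 2 and 3 labelled Control. Replicate 2 labelled Activated was the lowest and replicate 3 the highest of all 6. A log2 change of −0.042 ± 0.069 resulted (SE; edgeR adjusted p = 0.660), with a 95% interval of the fold from 0.876 to 1.08. The other GluN3 gene, Grin3b, was not among the members and was not tested, with 6 to 10 reads per library labelled Activated and 10 to 12 per library labelled Control.

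**Figure D1:**
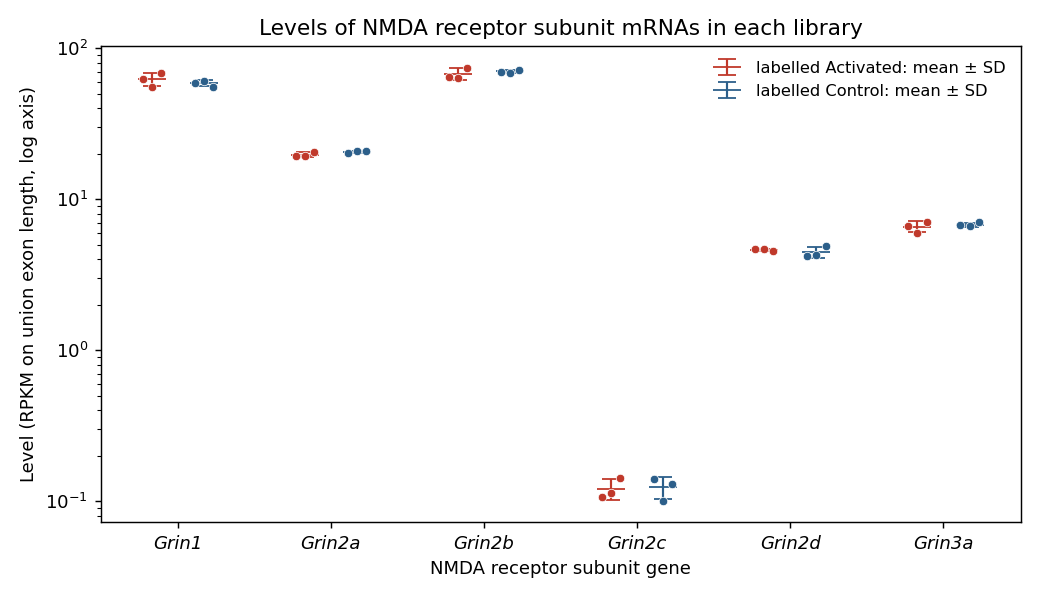
Level of each subunit gene (RPKM on union exon length, log axis) in the 3 libraries labelled Activated (red, left) and the 3 labelled Control (blue, right); points are libraries, bars mean ± SD. Within each gene the groups overlap, while the genes span from about 0.122 RPKM for Grin2c to 69.1 RPKM for Grin2b.

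To compare the members with each other, CPM was divided by the length in kilobases of all annotated exons merged, which gives RPKM. On this scale the order over all 6 libraries was Grin2b (mean 69.1 RPKM), Grin1 (60.5), Grin2a (20.2), Grin3a (6.69), Grin2d (4.54) and Grin2c (0.122). Only the ranges of Grin2b (63.3 to 74.7 RPKM) and Grin1 (55.8 to 68.4 RPKM) overlapped, and those of all other neighbours in the order were apart. Which of these 2 came first rested on the length used. Merged exons of Grin1 span 9700 bases although its longest transcript has 4276, and per kilobase of the longest transcript Grin1 stood at 137 RPKM and Grin2b at 71.3 RPKM, with the order of the other 4 the same. Grin2b has by far the longest transcript, 24060 bases, of which 18.5% are coding.

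Among the GluN2 genes the make-up of the pool was nearly the same in both groups. Grin2b accounted for 73.3% ± 1.17 of summed GluN2 RPKM in libraries labelled Activated and 73.7% ± 0.417 in libraries labelled Control (SD, n = 3 each). The share of Grin2a was 21.5% ± 0.735 in libraries labelled Activated and 21.6% ± 0.479 in libraries labelled Control. Grin2d made up 5.03% ± 0.443 in libraries labelled Activated and 4.65% ± 0.299 in libraries labelled Control, and Grin2c 0.131% ± 0.0121 in libraries labelled Activated and 0.129% ± 0.0207 in libraries labelled Control.

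**Figure D2:**
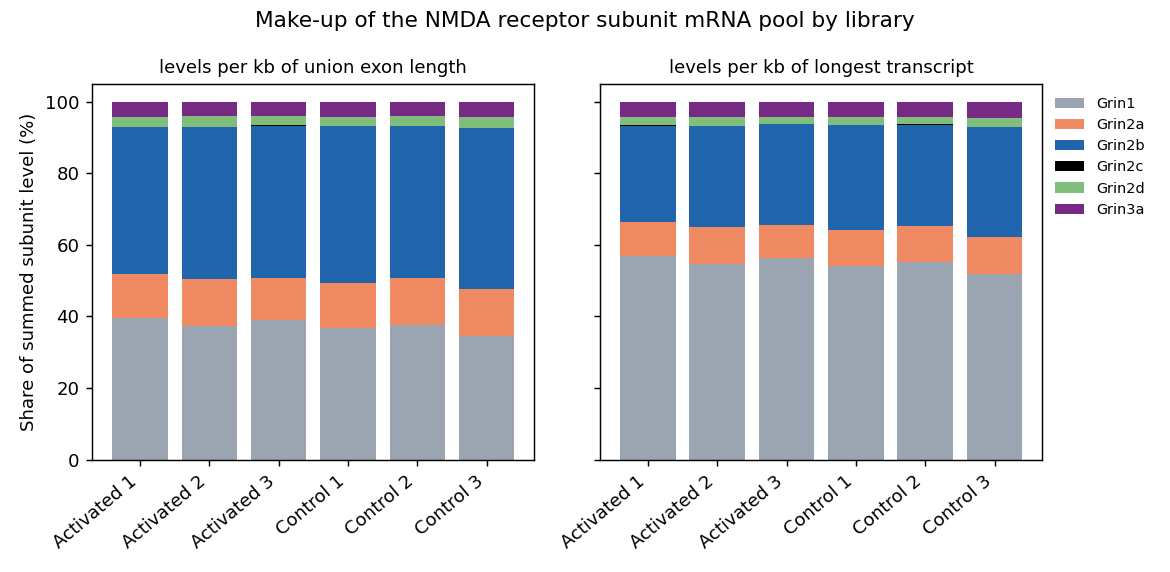
Share of each subunit gene in the summed level of the 6 genes (%), by library, with levels per kilobase of merged exons (left panel) and of the longest transcript (right panel). The bars of the 6 libraries look alike within a panel, while the share of Grin1 is larger on the right.

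Ratios within a library do not depend on how libraries are scaled, so 5 of them were compared with exact permutation tests over samples, whose smallest possible two-sided p is 0.1. The ratio of Grin2a to Grin2b, a common index of receptor maturation, was 0.298, 0.305 and 0.277 in replicates 1, 2 and 3 labelled Activated, and 0.288, 0.302 and 0.288 in replicates 1, 2 and 3 labelled Control. The groups overlapped, and the difference in the log2 ratio was 0.00068 (exact permutation p = 1; n = 3 each). Summed GluN2 RPKM over Grin1 was 1.48 ± 0.0725 in libraries labelled Activated and 1.63 ± 0.113 in libraries labelled Control, a log2 difference of −0.14 (exact permutation p = 0.2, adjusted p = 0.5; n = 3 each), or −0.083 without replicate 3 labelled Control.

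Grin3a over Grin1 was the one ratio whose groups did not overlap. It was 0.106, 0.108 and 0.104 in replicates 1, 2 and 3 labelled Activated, all just below the 0.114, 0.108 and 0.126 of replicates 1, 2 and 3 labelled Control. The log2 difference was −0.13 (exact permutation p = 0.1, the smallest possible; adjusted over the 5 ratios p = 0.5; n = 3 each). With 3 libraries against 3 no ratio could pass 0.05, before or after adjustment. Without replicate 3 labelled Control the difference was −0.067.

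The other fast glutamate receptors were set beside the NMDA family in the same fit. Of the 4 AMPA receptor genes, Gria2 (log2 fold change 0.22 ± 0.062, edgeR adjusted p = 0.0133) and Gria3 (0.19 ± 0.060, adjusted p = 0.0224) were higher in the libraries labelled Activated. Gria1 and Gria4 had values of −0.025 and 0.012 and did not pass. Of the 5 kainate receptor genes, Grik2 was higher (0.22 ± 0.068, edgeR adjusted p = 0.0202), and Grik1, Grik3, Grik4 and Grik5 had values of 0.039, −0.086, 0.17 and 0.056 without a call. Beside these calls, 16.2% of all genes tested and 13% of those at least as abundant as Grin2d were called higher. With so few genes per family, no contrast between families is read from these counts. The calls of Gria2, Gria3 and Grik2 were lost with total counts only (0.15, 0.12 and 0.16) and with offsets for length and GC content (0.0063, 0.064 and 0.043).

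Whether the NMDA family differed from these families was tested on summed RPKM. Summed NMDA over summed AMPA subunits was 0.829 ± 0.0756 in libraries labelled Activated and 0.872 ± 0.0229 in libraries labelled Control, a log2 difference of −0.077 (exact permutation p = 0.4, adjusted p = 0.5; n = 3 each). Against summed kainate subunits the ratio was 2.08 ± 0.188 in libraries labelled Activated and 2.18 ± 0.0719 in libraries labelled Control, a log2 difference of −0.072 (exact permutation p = 0.4, adjusted p = 0.5; n = 3 each). Both differences moved with the library left out. The first was −0.049, −0.031 and −0.15 without replicates 1, 2 and 3 labelled Activated, and the second −0.021 and −0.14 without replicates 2 and 3 labelled Activated. No difference between the receptor families was thus shown, in a design that cannot reach 0.05.

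**Figure D3:**
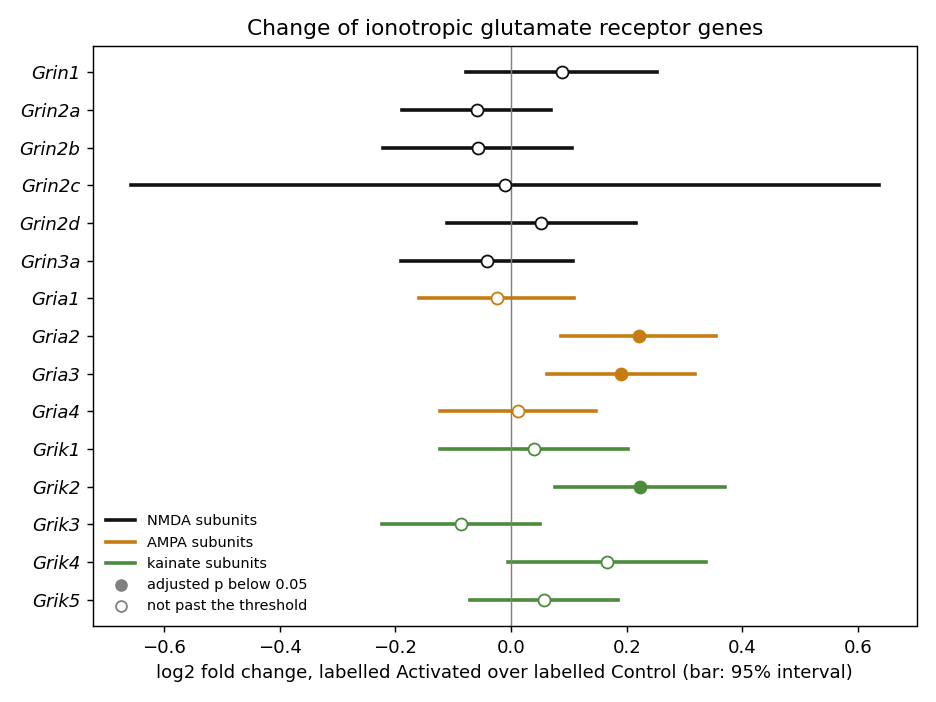
Log2 fold change (labelled Activated over labelled Control, TMM scaling) of the 15 ionotropic glutamate receptor genes, with 95% intervals; filled points passed the test. All 6 NMDA subunit genes have intervals across 0, the widest being that of Grin2c, while Gria2, Gria3 and Grik2 lie above 0.

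Genes that act on or around NMDA receptors were counted in the same fit. Unless said otherwise, the called genes named from these lists below were picked by the smallest p in this fit. Of 80 such genes tested in 7 lists, which include the AMPA and kainate genes, 8 were higher, 40 lower and 32 did not pass, around a median log2 fold change of −0.20. The number higher was 3 without replicate 1 labelled Activated, 4 without replicate 2 labelled Control, 5 without replicate 3 labelled Control, and 2 with total counts only. The number lower was 34 to 41 with 1 library left out. Among all genes tested 36.8% were called and 20.6% were lower, and among those at least as abundant as Grin2d 55.3% were called and 42.3% were lower. Over the 7 lists together, the counts are near the shares of the abundant genes. Above the 55.3% called stood the kinase, phosphatase and anchor list (82.6%) and the calcium signalling list (71.4%). No set test was run, so nothing particular to the receptor's surroundings is read from these counts. Pan-neuronal markers fell beside these genes, and their part was not tested.

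Of the tested genes for enzymes and transporters of the co-agonists, 33.3% were called, against 36.8% of all genes tested. Of 6 genes tested, Srr, the racemase that makes D-serine, fell (73.3 ± 3.52 CPM in libraries labelled Activated, 88.6 ± 1.93 CPM in libraries labelled Control; log2 fold change −0.27, edgeR adjusted p = 0.00338). Slc1a4, a transporter of small neutral amino acids including serine, rose (0.22, edgeR adjusted p = 0.0301), a call lost with total counts only, with unstranded counts and without replicate 1 or 3 labelled Activated or replicate 3 labelled Control. The serine synthesis genes Phgdh, Psat1 and Psph and the glycine transporter gene Slc6a9 did not pass, and Dao and Slc7a10 were too low to be tested. Slc6a9 was called higher without a low-count filter, without replicate 2 labelled Activated, and when libraries were scaled to neuron markers.

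Scaffold, transport and surface partners were lower in 9 of 20 cases and higher in 1. Among abundant genes 42.3% were lower, and among all genes tested 20.6%. Dlg3, which encodes the scaffold SAP102 that binds GluN2 tails early in development, had 119 ± 6.07 CPM in libraries labelled Activated, against 181 ± 8.23 CPM in libraries labelled Control (SD, n = 3 each; log2 fold change −0.60, edgeR adjusted p = 2.93e-05). The adaptor genes Lin7b (−0.54), Lin7c (−0.38) and Lin7a (−0.34), whose products take part in transport of GluN2B vesicles, fell as well. Ephb2, a receptor tyrosine kinase that binds GluN1, was the one that rose (0.22), and was named after its values were seen. Its call was lost with total counts only, with unstranded counts, without replicate 1 or 2 labelled Activated and without replicate 2 or 3 labelled Control.

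Kinases, phosphatases and anchors that act on the subunits were lower in 17 of 23 cases and higher in 2. Of this list 82.6% were called, against 55.3% called and 42.3% lower among abundant genes. Among all genes tested 36.8% were called and 20.6% were lower. With 1 library left out, 15 to 18 genes of the list were lower. Akap5, which anchors protein kinase A and calcineurin at synapses, had a log2 fold change of −0.74 (90.1 ± 1.26 CPM in libraries labelled Activated, 150 ± 11.5 CPM in libraries labelled Control; edgeR adjusted p = 1.04e-05). The phosphatase genes Ppp2ca (−0.73), Ppp3r1 (−0.69), which encodes the regulatory subunit of calcineurin, and Ppp1ca (−0.53) fell too. The 2 that rose were Camk2a (0.36), which encodes a kinase that binds the GluN2B tail, and the receptor phosphatase gene Ptpra (0.20), both named after their values were seen. The other Camk2 gene of the list, Camk2b, was lower (−0.33, edgeR adjusted p = 0.000966), and it too was named after its value was seen. The call of Ptpra was lost with total counts only, without replicate 1 labelled Activated and without replicate 2 or 3 labelled Control.

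Of 14 genes of calcium-dependent signalling downstream of the receptor, 10 fell (71.4%, against 42.3% lower among abundant genes) and none rose. They were led by the calmodulin genes Calm2 (325 ± 26.1 CPM in libraries labelled Activated, 542 ± 17.9 CPM in libraries labelled Control; −0.74, edgeR adjusted p = 1.55e-05) and Calm3 (−0.57). Calmodulin also binds GluN1 and takes part in inactivation of the channel by calcium. The exchange factor genes Rasgrp1 (−0.53) and Tiam1 (−0.50), which act on Ras and Rac, fell as well. Among all genes tested 20.6% were lower. With 1 library left out, 7 to 9 genes of this list were called lower. When libraries were scaled to neuron markers, only Calm2, Calm3 and Rasgrp1 stayed lower. Rasgrf1, Kalrn, Nsmf, Crtc1 and Creb1 were then called higher.

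Regulators of subunit expression held 3 lower and 1 higher of 8, so that 50% were called. Among all genes tested 36.8% were called and 20.6% were lower. Among genes at least as abundant as Grin2d 55.3% were called and 42.3% were lower, but Rest was less abundant than Grin2d. Rest, a repressor of neuronal genes that is low in mature neurons, rose to 12.4 ± 0.226 CPM in libraries labelled Activated, against 8.21 ± 0.468 CPM in libraries labelled Control (SD, n = 3 each; log2 fold change 0.59, edgeR adjusted p = 0.000449). Lower were Cpeb3, a translational regulator that binds mRNA tails (−0.63), the transcription factor gene Mef2c (−0.48), and Tbr1 (−0.27), a cortical transcription factor gene known to act on Grin2b. These values stand beside the higher sums of astrocyte markers and of endothelial, mural and fibroblast markers given above. The part of those markers in the level of Rest was not tested.

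**Figure D4:**
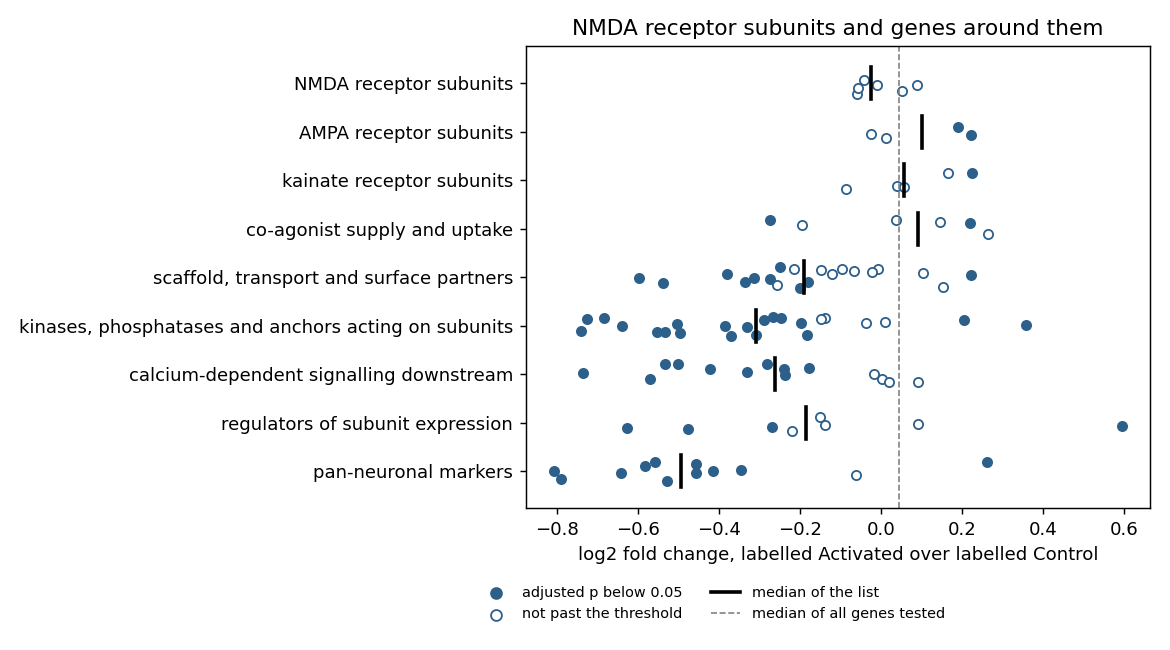
Log2 fold change (labelled Activated over labelled Control) of each tested gene in the NMDA receptor list, the 7 lists around it and the pan-neuronal markers; filled points passed the test, black bars are list medians and the dashed line is the median of all genes tested, 0.043. The NMDA subunits lie between −0.060 and 0.087, and the kinase and calcium signalling lists reach below −0.7.

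The main dependence of the members' values was on scaling. When libraries were scaled to excitatory and inhibitory neuron markers in place of TMM, the median of all genes moved to 0.40, against 0.043 under TMM, and 5 members were called higher, with log2 fold changes of 0.44 for Grin1, 0.30 for Grin2a, 0.30 for Grin2b, 0.41 for Grin2d and 0.31 for Grin3a. Grin2c had 0.35 without a call. Relative to the median of all genes, the members lay between −0.10 and 0.044 under TMM and between −0.10 and 0.041 under the neuron marker scaling. Both apply 1 factor to each library, so this likeness follows from the method. Over the other alternatives the positions relative to the median reached −0.20 for Grin2c and 0.17 for Grin2d. Under the neuron marker scaling Srr, Lin7a and Tbr1 turned to 0.081, 0.021 and 0.086, and they, Lin7b, Lin7c, Mef2c and Tiam1 lost their calls. With that scaling 10019 of all genes were higher and 428 lower, and of the 80 genes around the receptor 38 were higher and 11 lower.

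**Figure D5:**
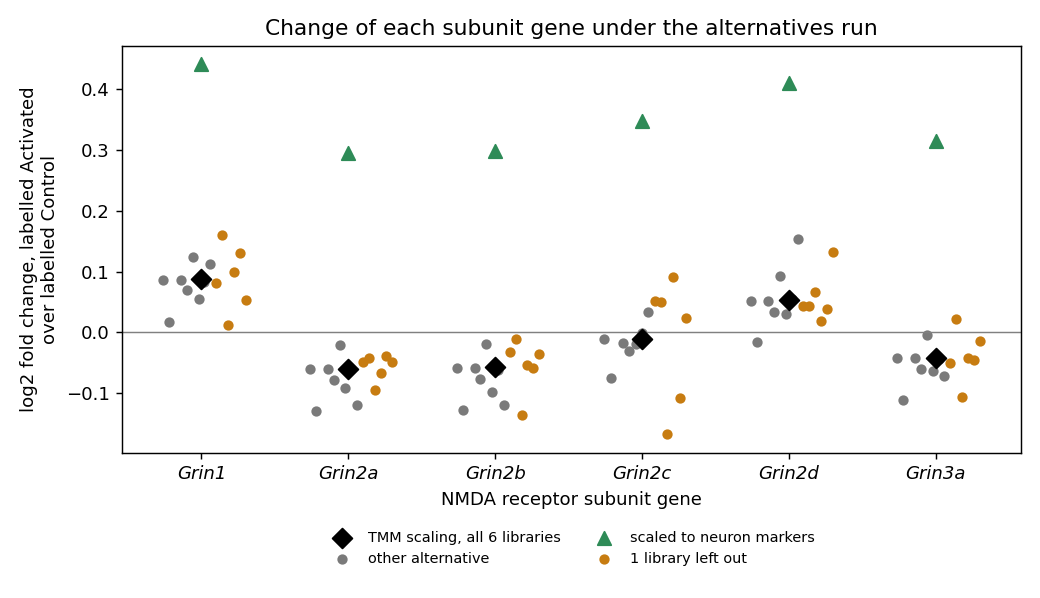
Log2 fold change of each subunit gene (labelled Activated over labelled Control) under TMM scaling with all libraries (black diamonds), with 1 library left out (orange), under scaling to neuron markers (green triangles) and under the other alternatives (grey). The green triangles lie between 0.30 and 0.44, above all other values, which stay between −0.17 and 0.16.

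Genes whose pattern over the 6 libraries was most like a member's were listed as a description only, from 9872 candidates (9873 for Grin2c) with a mean log2 CPM of at least 3. The 6 points share library depth and group, and the best of many candidates is high in any case. Tmem185a (Pearson r = 0.997) was closest to Grin1, Gtf2e1 (0.995) to Grin2a, Pak2 (0.989) to Grin2b, Dok6 (0.960) to Grin2d and Wwp1 (0.981) to Grin3a. The second in each case were Nectin2 (0.982), Rnf180 (0.992), B3galt6 (0.986), Desi2 (0.943) and Gm44509 (0.976). For Grin2c, with its sparse counts, Tmub1 (0.974) and Mrpl38 (0.971) came first.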

How the data were processed

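Strand-specific libraries of rRNA-depleted total RNA were sequenced as paired reads of 150 bases, per the labels' protocols. The authors deposited read counts per gene for each library, made with STAR 2.5.2b on mm10 per the submitters' processing notes, which also name edgeR; the annotation release was not given in the sources used here. Reverse-strand counts were used, since 4.05% to 4.29% of gene reads lay on the opposite strand. The 4 lines naming no gene were left out, the largest being reads assigned to no feature (25.1% to 37.3% of a library's reads) and unmapped reads (7.49% to 9.88%). GENCODE M21 gave names, lengths and coordinates for 55144 of 55385 identifiers.

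Low genes were removed by filterByExpr (count of at least 10, total of at least 15). Counts were scaled by TMM and tested by quasi-likelihood in edgeR 4.0.16 under R 4.3.3, all 6 libraries in one fit without other terms, with Benjamini-Hochberg adjustment over 18132 genes and a threshold of 0.05. The biological coefficient of variation was 0.0762. The size of the log2 fold change divided by √F gave its standard error, and 95% intervals use the fit's degrees of freedom. CPM and RPKM were computed here. Coding sequences were aligned with MAFFT 7.526 through their translations. The aligned sequences are not reported here. The procedure was tested on simulated counts.

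Members and lists were chosen with earlier results of these data known. Named were the 6 members, all AMPA and kainate genes, the 4 called genes with the smallest p of each other list and the 2 genes most like each member. As alternatives, scaling used total counts only, 34 neuron markers or size factors of DESeq2 1.42.0, whose Wald test was run as well. Genes were kept without a filter or from 1 CPM in 3 libraries. Counts were taken unstranded, the replicate number entered as a block, GC content and length entered as offsets (spline of 4 degrees of freedom), and each library was left out once. For ratios they were the longest transcript, unstranded counts, pairs, 0.1 RPKM added and each library left out. No replicates of a group agreed within sampling noise.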

Additional observations from a re-analysis of the deposited data

How the results depend on the processing

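Apart from neuron marker scaling, no member changed its call under the 14 alternatives run, which for Grin2c leave out the DESeq2 Wald test (no adjusted p) and the filter at 1 CPM (not kept). Under neuron marker scaling, 10019 genes were higher and 428 lower, 5 members passed (Grin1 0.44, Grin2d 0.41), and Grin2a (0.30), Grin2b (0.30), Grin2c (0.35) and Grin3a (0.31) changed sign, as did Gria1 (0.33), Grik3 (0.27), Srr (0.081), Lin7a (0.021) and Tbr1 (0.086). Since that scaling multiplies a library's genes by one factor, it moved all genes alike. Signs near 0 also turned for Grin2d with total counts only (−0.015), Grin2c with length and GC offsets (0.033), Gria1 at 1 CPM (0.013), Gria4 with total counts only (−0.058), no filter (−0.0074), unstranded counts (−0.021) or offsets (−0.041), and Grik1 (−0.029) and Grik5 (−0.013) with total counts only. For the 80 genes around the receptor, 38 were higher and 11 lower under neuron marker scaling, 2 higher with total counts only, and 5 higher with unstranded counts, the replicate block or offsets. With the filter at 1 CPM, Grik4 (0.20), Nlgn1 (0.19) and Lrp8 (0.14) gained calls as higher. The cause was not tested.

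With 1 library left out, log2 fold changes ranged from 0.013 to 0.16 for Grin1, −0.094 to −0.039 for Grin2a, −0.14 to −0.011 for Grin2b, −0.17 to 0.091 for Grin2c, 0.018 to 0.13 for Grin2d, −0.11 to 0.022 for Grin3a, −0.029 to 0.052 for Gria4 and −0.0076 to 0.10 for Grik1. Differences in log2 ratios ranged from −0.028 to 0.041 for Grin2a over Grin2b, −0.18 to −0.083 for GluN2 over Grin1, −0.18 to −0.067 for Grin3a over Grin1, −0.15 to −0.031 for NMDA over AMPA and −0.14 to −0.021 for NMDA over kainate subunits. Of the genes around the receptor 3 to 8 were called higher, 3 without Activated replicate 1, 4 without Control replicate 2 and 5 without Control replicate 3.

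No sign of pairing by replicate number was seen: deviations of same-numbered libraries correlated at −0.014, −0.18 and −0.21. Differently numbered ones correlated at −0.043 to 0.21. With 3 libraries per group, these values cannot decide whether the same number stands for a shared culture. With the replicate block, 2173 genes were higher and 3105 lower, no member passed, and Gria3, Grik2 and Slc1a4 lost their calls. Slc1a4 also lost its call with total counts only, unstranded counts, and without Activated replicate 1, Activated replicate 3 or Control replicate 3. Gria3 lost it with no filter, unstranded counts, and without Activated replicate 1 or Control replicate 2, and Grik2 without Activated replicate 1, Activated replicate 2 or Control replicate 2. Grin2c had 9 to 23 reads per library and the widest interval of the members; the part of depth in that width was not tested.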
